A study of Mus musculus with 4 samples.

Results

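The genes described here are 10 transcription factors that set the identity of natural killer (NK) cells: Nfil3, Tox, Tox2, Id2, Id3, Gata3, Eomes, Runx1, Runx3 and Cbfb. They were taken by symbol from the 37310 genes of the deposited tables, 1 row each. NK cells were sorted from bone marrow as CD3e-NK1.1+CD49b+ cells of C57BL/6 mice at 6 to 8 weeks of age, and their RNA was sequenced after Smart-seq2 amplification. The dKO group holds 2 libraries from Gabpb1l-/-Gabpb2-/- mice, in which Gabpb2 and the longer Gabpb1 isoform are deleted, and the Ctrl group holds 2 libraries from littermate controls. The series design calls the libraries of a group biological replicates, and whether a library pools several mice is not given in the sources used here. The labels name no driver line or other allele.

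NK cells arise in the marrow from lymphoid progenitors that give up the B and T cell fates. Nfil3 and Tox act at the first steps of that path, Id2 and Id3 hold in check the E proteins that would drive B and T cell genes, Gata3, Eomes and the T-box factor Tbx21 shape maturation, and the Runx proteins with their partner Cbfb act at several steps. GABP is an Ets-family factor in which Gabpa contacts DNA and pairs with Gabpb1 or Gabpb2. The series compares NK cell transcripts between mice with and without the GABP tetramer, and the values below give that comparison for these factors.

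No factor passed the test, and 7 of the 9 that could be tested had a 95% interval of the fold change that lay inside 2-fold in either direction. The exceptions were Nfil3, at 1.73 times the Ctrl level in dKO cells, and Id3, at 0.484 times. Of the 9, 0 were called in dKO against Ctrl (edgeR adjusted p under 0.05), where 0.611% of all tested genes were called, 0.316% higher and 0.295% lower in dKO. At an adjusted p under 0.10 in edgeR there were also 0, against 1.19% of genes. At an unadjusted p under 0.05 there were 2, Nfil3 and Id3, against 10.6% of all tested genes. DESeq2 called 1 of the 9, Nfil3, where it called 2.86% of genes. Without a count filter edgeR called the same 1, beside 2.4% of genes, and with a stricter filter it called 0, beside 1.31%. The limma-voom fit called 0 of the 9, beside 91 of all 13904 tested genes. On counts scaled to library size, the groups did not overlap for 4 of the 9, as was so for 41.6% of all tested genes. Id2 and Runx1, which are among these, overlapped by length-scaled TPM. Among those 4, dKO lay above Ctrl for 2, as for 21.7% of all tested genes, and below for 2, as for 19.9%. Their median log2 fold change (dKO minus Ctrl) was 0.10, beside 0.01 over all tested genes. Tox2 was too low to test.

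Because GABP binds Ets sites, the bases before the transcription start are shown for the factors furthest from no change, Nfil3 and Id3. They are also shown for Gata3 and Runx1, the tested factors that held the letters CCGGAA. Each run is the 250 bases upstream of a RefSeq start (GRCm38.p6), 5′ to 3′ on the strand of the gene, and capitals mark CCGGAA on either strand. The shorter GGAA, which the Nfil3 and Id3 runs also hold, is not marked. The Runx1 run is that of the downstream of its 2 listed starts.
Nfil3 (chr13:52981040-52981289, minus strand): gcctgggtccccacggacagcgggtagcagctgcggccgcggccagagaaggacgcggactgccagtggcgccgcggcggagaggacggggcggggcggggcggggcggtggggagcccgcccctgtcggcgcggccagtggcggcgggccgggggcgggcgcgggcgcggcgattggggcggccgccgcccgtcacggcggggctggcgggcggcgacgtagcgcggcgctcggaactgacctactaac
Id3 (chr4:136143572-136143821, plus strand): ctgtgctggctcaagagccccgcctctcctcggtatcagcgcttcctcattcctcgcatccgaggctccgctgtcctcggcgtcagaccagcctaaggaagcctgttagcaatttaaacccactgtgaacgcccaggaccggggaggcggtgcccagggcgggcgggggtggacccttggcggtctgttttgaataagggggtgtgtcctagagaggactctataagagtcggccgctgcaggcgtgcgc
Gata3 (chr2:9878601-9878850, minus strand): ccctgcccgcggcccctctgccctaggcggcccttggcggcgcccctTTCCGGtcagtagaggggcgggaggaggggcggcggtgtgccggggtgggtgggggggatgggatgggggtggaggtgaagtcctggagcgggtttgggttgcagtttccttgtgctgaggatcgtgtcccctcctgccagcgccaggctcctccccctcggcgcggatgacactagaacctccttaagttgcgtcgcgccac
Runx1 (chr16:92697330-92697579, minus strand): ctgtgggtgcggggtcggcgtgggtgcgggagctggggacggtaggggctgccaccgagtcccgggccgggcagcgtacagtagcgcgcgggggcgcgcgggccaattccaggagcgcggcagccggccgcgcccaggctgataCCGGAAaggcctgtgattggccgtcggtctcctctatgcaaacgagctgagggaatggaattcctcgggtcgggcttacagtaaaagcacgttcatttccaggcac

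RefSeq promoters were found for 9 of the 10 factors, 15 in all. The letters CCGGAAG, searched on both strands from 250 bases before to 50 bases after the start, were in 0 of the 15, while 8.86% of 32851 promoters of the same length held them. The shorter CCGGAA, which lies within CCGGAAG, was in 3 of the 15, those of Gata3, Runx1 and 1 of 5 starts of Tox2, against 14.9% of all promoters. These counts describe the letters in the windows only.

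Gene counts per library were 31469644 and 30233870 in dKO and 34724516 and 33299226 in Ctrl. Gabpb2 had 85 and 86 counts in the dKO libraries, against 1244 and 1009 in the Ctrl libraries. The length that RSEM assigned to Gabpb1 transcripts, averaged over isoforms, was 885 and 693 bases in dKO and 1105 and 1408 bases in Ctrl. Reads outside any gene made up 23.8% and 24.3% of counted reads in dKO and 18.1% and 21.5% in Ctrl. Xist had 2 and 9 counts in dKO and 6066 and 6430 in Ctrl, while Ddx3y, Eif2s3y, Kdm5d and Uty, which are Y-linked, reached 1032 or more in each dKO library and had no count in Ctrl. None of the 10 factors lies on a sex chromosome, but the genotype and the sex of the mice cannot be told apart in any comparison given here. All 12 NK identity genes were detected, and Klrb1c, the NK1.1 gene, had 1438 and 1509.8 CPM in dKO and 1631 and 1896 CPM in Ctrl, where CPM are counts scaled to library size. The sort was CD3e-, yet the summed Cd3d, Cd3e and Cd3g transcripts came to 28.6 and 45.5 CPM in dKO and to 126 and 123 CPM in Ctrl.

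**Figure D1:**
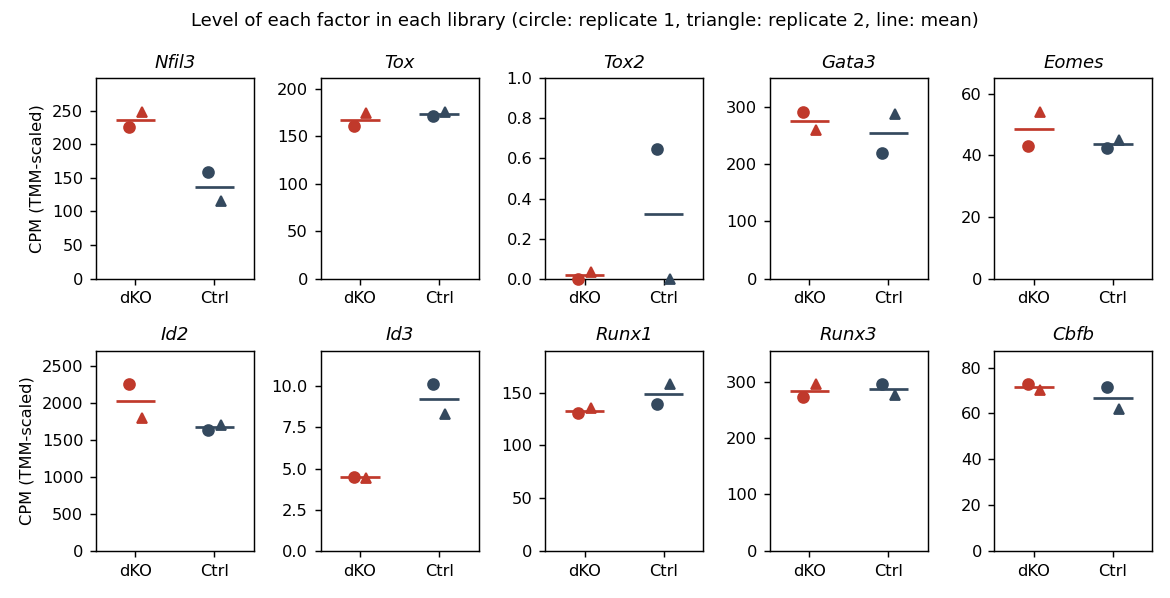
Level of each of the 10 factors in CPM (vertical axis from 0, a scale of its own per gene) in the dKO and Ctrl libraries, with circles for replicate 1, triangles for replicate 2 and a line at the mean of each group. Nfil3 sits at 225 and 248 CPM in dKO, above 158 and 115 CPM in Ctrl, Id3 sits lower in both dKO libraries, and Tox2 is near 0 in all 4 libraries except Ctrl replicate 1.

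Nfil3 encodes a basic leucine zipper protein, also called E4BP4, that mice need to form NK progenitors in the marrow. It had 225 and 248 CPM in dKO and 158 and 115 CPM in Ctrl. Both dKO libraries were above both Ctrl libraries, and the Ctrl libraries lay further apart than the dKO libraries. The mean was 237 ± 16.4 CPM in dKO and 136 ± 30.8 CPM in Ctrl (SD, n = 2 each). The log2 fold change was 0.79 (SE 0.19, 95% interval 0.36 to 1.23), which in linear terms is 1.73-fold with an interval from 1.28 to 2.35. It did not pass in edgeR (adjusted p = 0.156), while 2 of 14 other settings called it, DESeq2 (adjusted p = 0.0143) and edgeR without a count filter (adjusted p = 0.00140). Without Ctrl replicate 1 the log2 fold change was 1.04, and without Ctrl replicate 2 it was 0.58. In a bulk sample of sorted cells, fewer cells that carry a transcript and less of it per cell cannot be told apart, and this holds for every level given here. The gene lies on chromosome 13 from 52967209 to 52981073, minus strand (GRCm38).

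The PAR-domain relatives of Nfil3, which bind similar DNA sites, were Dbp, Tef and Hlf, and 2 of the 3 could be tested. Neither was called by edgeR, DESeq2 or limma-voom, and 1, Dbp, had an unadjusted p under 0.05, against 10.6% of all tested genes. Dbp, a circadian activator, had 7.03 and 5.20 CPM in dKO and 2.20 and 3.22 CPM in Ctrl (log2 fold change 1.17 with an SE of 0.40, adjusted p = 0.336 in edgeR). The groups did not overlap for Dbp. Tef had 22.4 and 21.8 CPM in dKO and 17.3 and 23.5 CPM in Ctrl, which overlap.

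Tox encodes a high-mobility-group box protein required for the NK and innate lymphoid lineages in mice. Its level was 161 and 174 CPM in dKO and 171 and 176 CPM in Ctrl. The groups overlapped and the means lay within 1 SD of the dKO libraries, at 167 ± 9.07 CPM in dKO and 173 ± 3.06 CPM in Ctrl (SD, n = 2 each). Its log2 fold change was -0.05 (SE 0.15, 95% interval -0.39 to 0.29, edgeR adjusted p = 0.951) and was 0.0034 without dKO replicate 1. Tox lies on chromosome 4 from 6686353 to 6991557. Its relative Tox4, a broadly expressed nuclear protein, had 180.2 and 165 CPM in dKO and 206 and 201 CPM in Ctrl, and it did not pass (log2 fold change -0.24 with an SE of 0.15, adjusted p = 0.656 in edgeR).

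Tox2, whose human counterpart has been tied to NK cell development, was hardly detected. It had 0 and 1 counts in the dKO libraries and 22 and 0 counts in the Ctrl libraries. All but 1 of its counts came from Ctrl replicate 1, and dKO and the other Ctrl library were below 3 counts, the level that a count of 0 allows for counting error. No fold is given for it. Tox3 was below 1 CPM in all 4 libraries. Tox2, from 163203125 to 163324170, and Gata3 share chromosome 2 with Gabpb1, at distances of 36.5 and 117 Mb.

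Id2 and Id3 are helix-loop-helix proteins without a DNA-binding region that pair with E proteins and keep them off DNA, and Id2 is the main one in NK cells. Id2 was the highest of the 10 factors, at 2251 and 1791 CPM in dKO and 1635 and 1704 CPM in Ctrl. In CPM the dKO libraries were above the Ctrl libraries, but they differed more from each other than dKO replicate 2 did from Ctrl replicate 2. By length-scaled TPM the groups overlapped, at 3405 and 2385 in dKO and 2222 and 2462 in Ctrl. The means were 2021 ± 325 CPM in dKO and 1669.5 ± 48.3 CPM in Ctrl (SD, n = 2 each), and the log2 fold change of 0.28 (SE 0.16, 95% interval -0.10 to 0.65) did not pass (edgeR adjusted p = 0.634). Without dKO replicate 1 the log2 fold change was 0.10. Id2 lies on chromosome 12 from 25093799 to 25097140, minus strand.

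Id3 had 145 and 134 counts in the dKO libraries and 345 and 277 counts in the Ctrl libraries, or 4.51 and 4.43 CPM in dKO against 10.1 and 8.35 CPM in Ctrl. Both dKO libraries were lower than both Ctrl libraries. Its log2 fold change was -1.05 (SE 0.31, 95% interval -1.76 to -0.33), or 0.484 times the Ctrl level with an interval from 0.294 to 0.797, and it did not pass (edgeR adjusted p = 0.266). Over 14 other settings the adjusted p ranged from 0.153 to 0.646, and the sign was the same in each. Id3 is also a gene of T cells, and T cell transcripts were lower in the same libraries. Of the 15 T cell markers in the files, all tested, 2 fell in dKO, Cd3e (log2 fold change -2.24 with an SE of 0.24, adjusted p = 0.00790 in edgeR) and Trac (-1.90, SE 0.25, adjusted p = 0.0207). DESeq2 called 7 of the 15, limma-voom 4, and 9 had an unadjusted p under 0.05. Over all tested genes these were 2.86%, 91 of 13904 and 10.6%, and edgeR called 0.295% lower in dKO. For 11 of the 15 both dKO libraries were below both Ctrl libraries, as was so for 19.9% of all tested genes. The summed level of the list ranged from 955 to 1059 CPM in dKO and from 1214 to 1283 CPM in Ctrl, and no marker was at 0 in all 4 libraries. The part of T cell transcripts in the Id3 values was not tested. The gene spans 136143497 to 136145755 on chromosome 4.

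The E proteins Tcf3, Tcf4 and Tcf12 are what the Id proteins bind. That list also held Id1 and Id4, and 4 of its genes were tested. Of the 4, 0 were called by edgeR, DESeq2 or limma-voom. An unadjusted p under 0.05 was found for 1, Tcf3, against 10.6% of all tested genes. Tcf3, which encodes E2A, had 68.6 and 73.1 CPM in dKO and 49.0 and 51.4 CPM in Ctrl (log2 fold change 0.50 with an SE of 0.17, adjusted p = 0.347 in edgeR). The groups did not overlap for Tcf3. Tcf12, the HEB gene, overlapped at 45.3 and 45.7 CPM in dKO and 35.2 and 45.5 CPM in Ctrl. By length-scaled TPM the ratio of Id2 to the summed Tcf3, Tcf4 and Tcf12 was 25.8 and 18.3 in dKO and 22.8 and 19.2 in Ctrl, so the groups overlapped (exact permutation test, two-sided p = 1). The TPM ratio of Id2 to Id3 was 698 and 351 in dKO and 146 and 185 in Ctrl, a log2 difference of 1.59. From whole-number counts per effective length it was 471 and 371 in dKO and 163 and 198 in Ctrl, a log2 difference of 1.22. The groups did not overlap on either scale, and the exact two-sided permutation p of 0.333 is the smallest that 2 against 2 libraries can give.

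Genes that E proteins drive in lymphoid cells, such as recombination and pre-B cell genes, gave 10 tested members. In edgeR 1 was lower in dKO and 0 were higher, beside 0.295% and 0.316% of all tested genes. The lower one was Cd3e, at 8.90 and 12.2 CPM in dKO and 47.5 and 52.5 CPM in Ctrl. DESeq2 called 3 of the 10 and limma-voom 1, beside 2.86% and 91 of 13904 over all tested genes. An unadjusted p under 0.05 was found for 4 of the 10, against 10.6%. The dKO libraries lay below Ctrl for 6 and above for 1, against 19.9% and 21.7%. The median of the list was -0.87 on the log2 scale beside 0.01 over all tested genes, with 8 of 10 negative. The list shares Cd3e with the T cell markers and Igll1 and Ebf1 with the B lineage markers. Those B lineage markers had a summed level of 111 and 146 CPM in dKO and 118 and 261 CPM in Ctrl, highest in Ctrl replicate 2. The smallest p among them were those of Igll1 (edgeR adjusted p = 0.145) and Pax5 (edgeR adjusted p = 0.463), both lower in the dKO libraries.

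**Figure D2:**
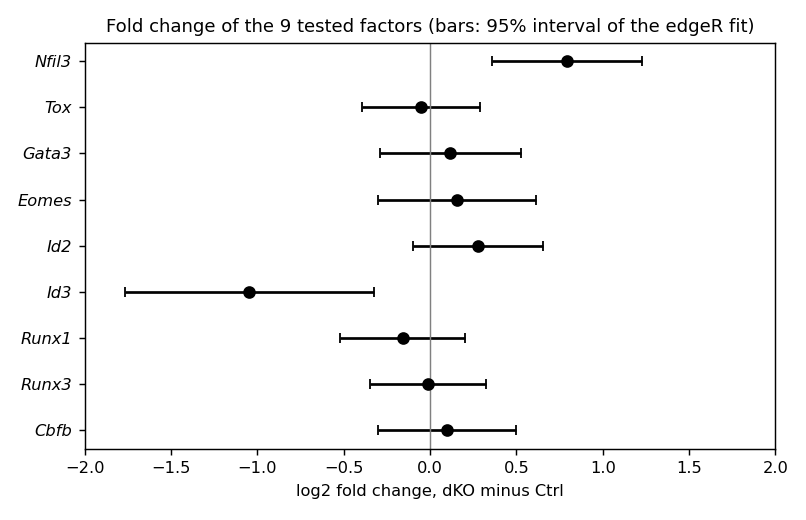
Log2 fold change (horizontal axis, dKO minus Ctrl) of the 9 tested factors, with points at the edgeR estimate and bars for its 95% interval. The bars of Nfil3 (0.36 to 1.23) and Id3 (-1.76 to -0.33) do not reach 0, the other 7 cross it, and no adjusted p was under 0.05.

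Gata3 encodes a zinc finger factor with roles in NK maturation and exit from the marrow in mice, and in T cells and type 2 innate lymphoid cells. It had 291 and 259 CPM in dKO and 219.8 and 288 CPM in Ctrl. Ctrl replicate 1 was the lowest library and the groups overlapped. The means were 275 ± 23.1 CPM in dKO and 254 ± 48.0 CPM in Ctrl (SD, n = 2 each), with a log2 fold change of 0.12 (SE 0.18, 95% interval -0.29 to 0.52, edgeR adjusted p = 0.891). Without Ctrl replicate 1 the log2 fold change was -0.07. Gata3 lies on chromosome 2 from 9857078 to 9890034, minus strand.

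Markers of type 2 innate lymphoid cells and their progenitors, which also rely on Gata3, gave 10 tested genes. Of these, 0 were called by edgeR and by limma-voom, 2 by DESeq2, and 3 had an unadjusted p under 0.05. Over all tested genes DESeq2 called 2.86%, and 10.6% had an unadjusted p under 0.05. Of the 10, 4 had a positive and 6 a negative log2 fold change. Il13 had 0 counts in every library. Bmp7 had 41.6 and 48.5 CPM in dKO and 21.4 and 16.3 CPM in Ctrl (log2 fold change 1.26, edgeR adjusted p = 0.0618). The other 2 with a small p lay the other way. Pdcd1, the PD-1 gene, had 2 and 4 counts in dKO and 49 and 62 counts in Ctrl (edgeR adjusted p = 0.1503), and Il2ra, an IL-2 receptor gene, had 9.06 and 8.27 CPM in dKO and 11.6 and 15.9 CPM in Ctrl (edgeR adjusted p = 0.465). Among the other GATA genes and cofactors, 0 of 3 tested were called by any of the 3 tools, and Gata4 and Zfpm2 had 0 counts throughout. Zfpm1, a cofactor that binds GATA proteins, had 24.0 and 21.8 CPM in dKO and 12.4 and 17.0 CPM in Ctrl (log2 fold change 0.64 with an SE of 0.25, adjusted p = 0.417 in edgeR). Gata2, a factor of progenitors and mast cells, stayed at or below 2.48 CPM.

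Eomes, the T-box factor that marks mature NK cells apart from other group 1 innate lymphoid cells, was among the lower of the 10. It had 42.9 and 54.1 CPM in dKO and 42.2 and 44.8 CPM in Ctrl. The dKO replicate 1 value lay between the Ctrl values, so the groups overlapped. The means of 48.5 ± 7.94 CPM in dKO and 43.5 ± 1.84 CPM in Ctrl (SD, n = 2 each) correspond to a log2 fold change of 0.16 (SE 0.20, 95% interval -0.30 to 0.61, edgeR adjusted p = 0.860), which was -0.02 without dKO replicate 2. Eomes lies on chromosome 9 from 118478212 to 118486132.

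Tbx21, the other T-box factor of NK cells, had 749 and 793 CPM in dKO and 997 and 891 CPM in Ctrl, with both dKO libraries below both Ctrl libraries. It did not pass (log2 fold change -0.29 with an SE of 0.15, adjusted p = 0.559 in edgeR), and of the 2 tested genes in the T-box list 0 were called by edgeR, DESeq2 or limma-voom. Tbx6, a T-box factor of mesoderm, was near 1 CPM or lower. The TPM ratio of Eomes to Tbx21 was 0.0338 and 0.0417 in dKO and 0.0259 and 0.0321 in Ctrl. The dKO ratios were above the Ctrl ratios (exact permutation test, two-sided p = 0.333). With 2 against 2 libraries that test cannot give a smaller p, so it cannot decide whether the ratios differ.

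Runx1 and Runx3 encode DNA-binding subunits of core-binding factor, and Runx3 is the form tied to the mature NK response to IL-15. Runx1 had 131 and 135 CPM in dKO and 139 and 158 CPM in Ctrl. In CPM both dKO libraries were below both Ctrl libraries by little. The means were 133 ± 3.04 CPM in dKO and 149 ± 13.5 CPM in Ctrl (SD, n = 2 each). By length-scaled TPM the groups overlapped, at 45.6 and 39.5 in dKO and 40.7 and 51.1 in Ctrl. The log2 fold change of -0.16 (SE 0.16, 95% interval -0.52 to 0.20) did not pass (edgeR adjusted p = 0.805). Runx1 lies on chromosome 16, from 92601466 to 92826149.

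Runx3 had 273 and 295 CPM in dKO and 295 and 277 CPM in Ctrl, and the groups covered nearly the same range. Its log2 fold change was -0.01 (SE 0.15, edgeR adjusted p = 0.993), and the 95% interval in linear terms ran from 0.785 to 1.25 times the Ctrl level. Its sign turned positive in 4 of the 14 other settings, at most to 0.044 on the log2 scale, without dKO replicate 1. An antisense gene that overlaps it, Gm16224, had 168 and 139 counts in dKO and 57 and 103 counts in Ctrl, and reads of the pair cannot be told apart without strand. Runx3 is on the plus strand of chromosome 4, from 135120652 to 135177990.

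Cbfb encodes the partner that steadies Runx proteins on DNA without binding it. It had 72.8 and 70.0 CPM in dKO and 71.5 and 61.7 CPM in Ctrl, which overlap. The log2 fold change was 0.10 (SE 0.17, 95% interval -0.30 to 0.50, edgeR adjusted p = 0.904), and -0.00088 without Ctrl replicate 2. Cbfb lies on chromosome 8 from 105170674 to 105217989. The TPM ratio of Cbfb to Runx3 was 0.325 and 0.305 in dKO and 0.297 and 0.275 in Ctrl (exact permutation test, two-sided p = 0.333), and by counts per length the groups overlapped. The ratio of Runx3 to Runx1 was 2.90 and 3.03 in dKO and 3.07 and 2.45 in Ctrl, which overlap.

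Of 7 tested RUNX and CBF partners, 0 were called by edgeR, DESeq2 or limma-voom, and 0 had an unadjusted p under 0.05. Such a p was held by 10.6% of all tested genes. Tle3, a Groucho-family corepressor, had 179 and 156 CPM in dKO and 149 and 124 CPM in Ctrl (log2 fold change 0.30 with an SE of 0.17, adjusted p = 0.621 in edgeR). Aes, a short relative of it, had 53.1 and 60.3 CPM in dKO and 48.8 and 45.3 CPM in Ctrl (log2 fold change 0.27 with an SE of 0.18, adjusted p = 0.684 in edgeR). The groups did not overlap for either.

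**Figure D3:**
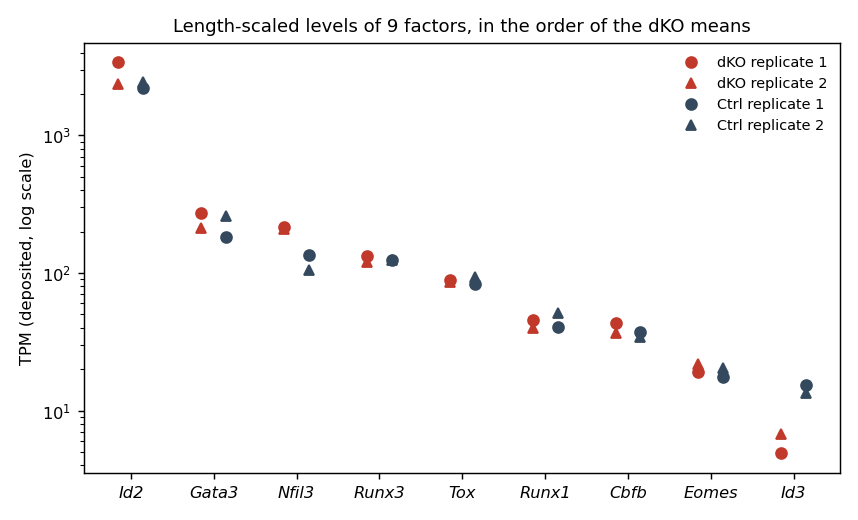
Length-scaled level of 9 factors in deposited TPM (vertical log axis) in each dKO and Ctrl library, ordered by the dKO mean, with Tox2 left out because it is listed at 0 in 3 libraries. Id2 stands above the rest at 2385 TPM or more in dKO and 2222 TPM or more in Ctrl, and Nfil3 has rank 3 in dKO and rank 4 in Ctrl.

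Compared per length, the factors spanned a wide range, and their order was nearly the same in dKO and Ctrl. Id2 had 3405 and 2385 TPM in dKO and 2222 and 2462 TPM in Ctrl, and ranked 29 of all genes by mean TPM in dKO and 44 in Ctrl. Gata3 was next, at 274 and 213 TPM in dKO and 184 and 258 TPM in Ctrl. In dKO its range overlapped that of Nfil3 at 216 and 209 TPM, while in Ctrl Nfil3 was at 136 and 105 TPM, below Gata3 and overlapping with Runx3. Runx3 had 132 and 119.9 TPM in dKO and 125 and 125 TPM in Ctrl. Tox, Runx1, Cbfb and Eomes followed in that order in both groups, from a mean of 87.1 TPM for Tox to 20.5 TPM for Eomes in dKO and from 88.2 to 19.0 TPM in Ctrl. The ranges of Runx1 and Cbfb overlapped in dKO and were apart in Ctrl. Id3 had rank 9, at 4.88 and 6.79 TPM in dKO and 15.2 and 13.3 TPM in Ctrl. Tox2 was listed at 0 TPM in both dKO libraries and in Ctrl replicate 2, and at 0.570 TPM in Ctrl replicate 1.

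A list of genes tied to these factors in NK or T cells, written from general knowledge, gave 16 tested members. Of these, edgeR called 0, DESeq2 2 and limma-voom 1, and 5 had an unadjusted p under 0.05. Over all tested genes edgeR called 0.611%, DESeq2 2.86% and limma-voom 91 of 13904, and 10.6% had an unadjusted p under 0.05. Whether each gene depends on these factors here, or on others such as Tbx21, was not tested. The median log2 fold change of the list was -0.16, with 5 positive and 11 negative values. Of the genes with an unadjusted p under 0.05, S1pr5, Il7r and Prf1 had negative log2 fold changes. Klra4 (log2 fold change 0.51) and Cd27 (0.38) had positive ones, with both dKO libraries above both Ctrl libraries. S1pr5, the sphingosine phosphate receptor that guides NK cells out of the marrow, had 152 and 142 CPM in dKO and 271 and 269 CPM in Ctrl. The groups were far apart relative to their spread, and the adjusted p of edgeR was just over the threshold (log2 fold change -0.87, SE 0.15, adjusted p = 0.0522). Il7r, the IL-7 receptor gene, had 91.7 and 90.6 CPM in dKO and 127 and 221 CPM in Ctrl (log2 fold change -0.93 with an SE of 0.25, adjusted p = 0.213 in edgeR). Il7r is also expressed by T cells and other innate lymphoid cells, so the T cell sums given above stand beside it, and their part was not tested.

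Genes that act upstream of the factors, among them IL-15 receptor, Notch and TGF-beta signalling genes, gave 20 tested members. Of these, 0 were called by edgeR and limma-voom, 1 by DESeq2, and 4 had an unadjusted p under 0.05. Across all tested genes DESeq2 called 2.86%, and 10.6% had an unadjusted p under 0.05. Jak3, the kinase of the common gamma chain, had 157 and 146 CPM in dKO and 253 and 263 CPM in Ctrl (log2 fold change -0.77 with an SE of 0.15, adjusted p = 0.0790 in edgeR). Ets1, an Ets factor that NK cells need, had 1214 and 1173 CPM in dKO and 1429.5 and 1739.9 CPM in Ctrl (log2 fold change -0.41 with an SE of 0.16, adjusted p = 0.409 in edgeR). For Jak3 and Ets1 the dKO libraries were below the Ctrl libraries. Foxo1 (log2 fold change 0.61) and Tgfbr2 (0.34) also had an unadjusted p under 0.05 in edgeR, with the dKO libraries above. Of the 20 genes, dKO lay below Ctrl for 7 and above for 2, and the groups overlapped for 11. Over all tested genes 19.9% lay below and 21.7% above.

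Among 38 tested other transcription factors of NK cells, 3 fell in dKO and 0 rose (edgeR). Over all tested genes 0.295% fell and 0.316% rose. The median log2 fold change of the 38 was -0.12, beside 0.01 over all tested genes. Ikzf2, which encodes Helios, had 17.3 and 20.2 CPM in dKO and 54.0 and 65.7 CPM in Ctrl (edgeR adjusted p = 0.0172, log2 fold change -1.68). Zeb2, a factor of late NK maturation, had 38.9 and 34.4 CPM in dKO and 109 and 82.6 CPM in Ctrl (edgeR adjusted p = 0.0296, log2 fold change -1.39). Irf8, an interferon regulatory factor with a role in NK responses, had 441 and 428 CPM in dKO and 807 and 903 CPM in Ctrl (edgeR adjusted p = 0.0337, log2 fold change -0.98). DESeq2 called 5 of the 38 and limma-voom 3, beside 2.86% and 91 of 13904 over all tested genes. An unadjusted p under 0.05 was found for 10 of the 38, against 10.6% of all tested genes. The dKO libraries lay below Ctrl for 13 of the 38 and above for 4, against 19.9% and 21.7%. Of the 3 called by edgeR, Ikzf2 was called in every other setting run, Irf8 was lost with the replicate block and without dKO replicate 1 or dKO replicate 2, and Zeb2 was lost without Ctrl replicate 1 or dKO replicate 2. Irf4, another interferon regulatory factor, was called lower in 7 of the other settings, DESeq2 among them. None of these genes is among the 10 factors, and whether the 10 differ from the 38 was not tested.

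**Figure D4:**
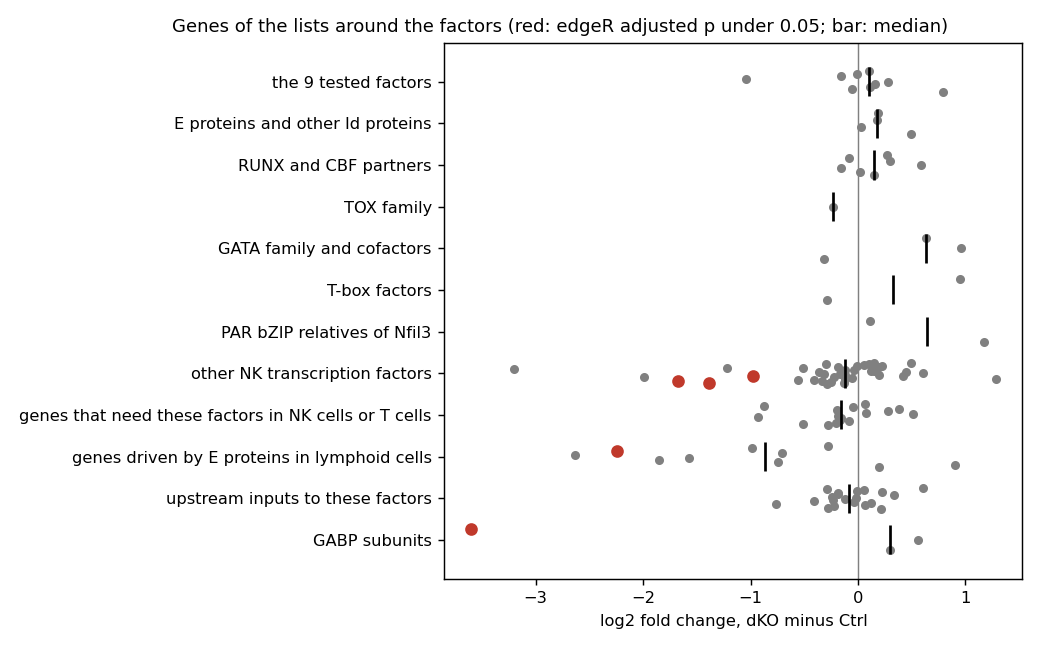
Log2 fold change (horizontal axis, dKO minus Ctrl) of each tested gene in the lists around the factors, 1 list per line, with a black bar at the median of the list and red points for edgeR adjusted p under 0.05. The 9 tested factors hold no red point and have a median of 0.10, and the red points are Ikzf2, Zeb2 and Irf8, Cd3e, and Gabpb2.

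Markers of the other cells that a marrow sort can hold were followed to set beside these values. Over all tested genes edgeR called 0.611%, limma-voom 91 of 13904 and DESeq2 2.86%. Of 9 tested ILC1 markers 0 were called by edgeR and limma-voom and 2 by DESeq2, and each of the 9 had a value below 0 on the log2 scale (median -0.74). Their summed level was 229 and 259 CPM in dKO and 382 and 419.8 CPM in Ctrl. This list shares Cd3g, at 6.22 and 12.0 CPM in dKO and 27.0 and 24.6 CPM in Ctrl, with the T cell list, and Tnfsf10 and Itga1, which define ILC1, overlapped between groups. Neutrophil markers, among them the granule genes Elane (20.9 and 15.7 CPM in dKO, 105.5 and 39.4 CPM in Ctrl) and Mpo (59.7 and 55.5 CPM in dKO, 348 and 103.7 CPM in Ctrl), summed to 1397 and 2264 CPM in dKO and 2196 and 2835 CPM in Ctrl. The lists of B lineage, neutrophil, monocyte and dendritic cell, basophil and mast cell, and erythroid and platelet markers held 0 called genes each in edgeR and in limma-voom, and 1, 2, 1, 0 and 0 in DESeq2. Of the 12 NK identity genes 0 were called by edgeR and limma-voom and 1 by DESeq2, with a median of -0.20. Gzma and Prf1, which encode killing proteins of the granules, had the smallest p of that list, with log2 fold changes of -0.89 (adjusted p = 0.160) and -0.51 (adjusted p = 0.224) in edgeR. Of the monocyte and dendritic cell markers, Ly6c2 had 104.1 and 187 CPM in dKO and 347 and 349 CPM in Ctrl (edgeR adjusted p = 0.0994), and Ccr2, a chemokine receptor gene, had 2454 and 2607 CPM in dKO and 2065 and 2173 CPM in Ctrl. Ccr2 was above the NK1.1 gene Klrb1c in every library, and which cells carried it was not tested. Of the basophil and mast cell markers, Hdc, the histamine-forming enzyme, had 11.2 and 17.1 CPM in dKO and 22.3 and 22.7 CPM in Ctrl (edgeR adjusted p = 0.430), and Prss34 overlapped. The 8 tested genes of that list mostly lay the other way from Hdc, with 6 positive and 2 negative log2 fold changes and a median of 0.39. Of the erythroid and platelet markers, Hba-a2 and Itga2b had the smallest p, and both overlapped between the groups. What part these cells have in the values of the 10 factors was not tested.

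**Figure D5:**
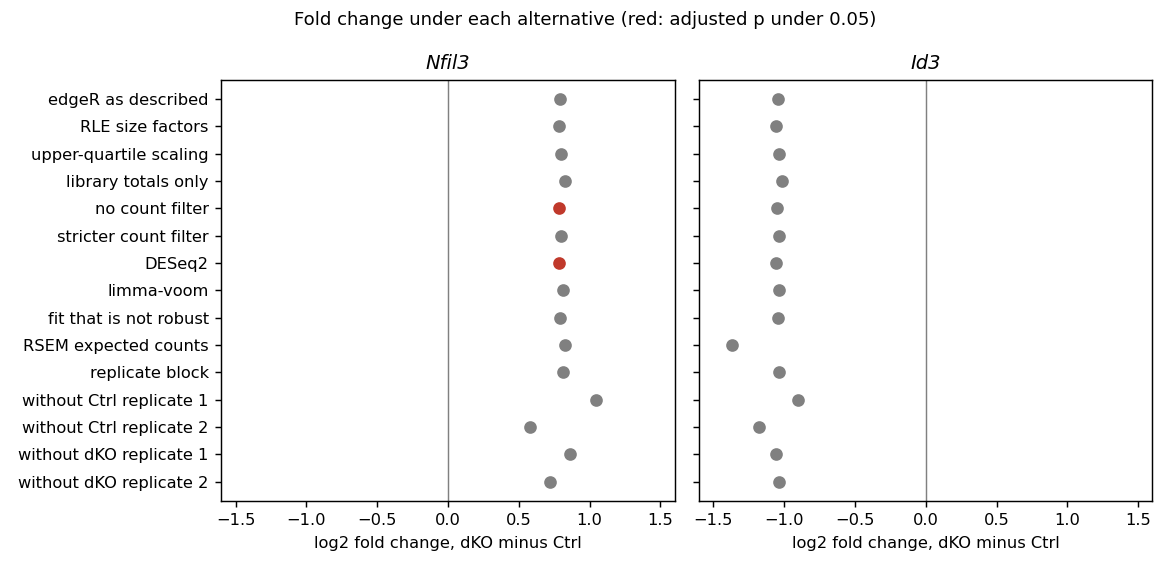
Log2 fold change of Nfil3 and Id3 (horizontal axes, dKO minus Ctrl) under the settings named at the left, with red points for adjusted p under 0.05. Nfil3 is red with no count filter and with DESeq2, its estimates run from 0.58 to 1.04, and Id3 has no red point between -1.37 and -0.90.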

How the data were processed

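RNA of 4 sorted NK cell libraries was counted per gene, and the submitters' processing notes list, with no roles, mm9, HTSeq 0.6.1, RSEM 1.3.0, TopHat2 2.1.1, Trimmomatic 0.36, FastQC 0.11.5 and DESeq2 1.32.0. The sources used here give neither the strand setting nor the annotation release. The deposited gene counts are whole numbers. The authors also deposited RSEM tables with expected counts, TPM, FPKM and lengths, per the file headers. FPKM values, as deposited by the authors, were not used.

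Differences in counts were tested by quasi-likelihood in edgeR 4.0.16 (R 4.3.3, F test, robust fit, TMM scaling, minimum count 10, 13904 genes tested), with Benjamini-Hochberg adjustment over all of them and a threshold of 0.05. Rows that name no gene were left out, and reads in no feature were 18.1% to 24.3% of a library. The SE is the log2 fold change over the square root of F, and intervals use the fit's t distribution. Levels are CPM on the TMM-scaled library size, and TPM only compares genes. Intervals of counts cover counting error only. Alternatives, limma 3.58.1 (voom) and DESeq2 1.42.0 among them, are given below. Where an alternative leaves 1 library in a group, that library is assumed to vary like the other group.

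The 10 factors and all lists were chosen with earlier results of these data known. Named genes are the 10 factors, the GABP subunits, and of each list up to 4 called genes, or the 2 of smallest p where none was called. Some genes outside that rule are context chosen after their values were seen. They are Tox3, Gata4, Zfpm2, Klrb1c, Il13, Ebf1, Tnfsf10, Itga1, Cd3d, Il2ra, Irf4, Sfpi1, Socs3, Foxo1, Tgfbr2, Klra4, Cd27 and antisense genes. Tcf4, Id1, Id4 and Hlf are named as parts of their lists, and Xist and the Y-linked genes as a check of the libraries. Positions are GRCm38 (GENCODE M21), matched by Ensembl identifier, and are not those of the build used for counting. Promoters are from RefSeq on GRCm38.p6.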

Additional observations from a re-analysis of the deposited data

How the results depend on the processing

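With 2 libraries a group, the 95% intervals of the 7 factors nearest no change still allow differences within 2-fold, and sex cannot be told apart from genotype. Over 14 other settings (scaling, filters, tools, RSEM expected counts, each library left out), Nfil3, Id2, Id3 and Runx1 kept their direction. Nfil3 was called, as 1 factor higher in dKO, with no count filter (log2 fold change 0.79) and with DESeq2 (0.78). With 1 library left out its log2 fold change was 0.58 to 1.04. Runx3 turned positive with library totals only (0.021) and with RSEM expected counts (0.0061), and with 1 library left out it ranged from -0.070 to 0.044. Under the same omissions Eomes ranged from -0.024 to 0.31, Tox from -0.11 to 0.0034, Gata3 from -0.068 to 0.32 and Cbfb from -0.00088 to 0.21. The cause was not tested.

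Over all genes, the calls higher and lower in dKO were 256 and 303 with no count filter, 74 and 73 with a stricter filter and 183 and 215 with DESeq2, beside 44 and 41 in the values reported. With 1 library left out they ranged from 31 to 94 and from 32 to 93, highest without Ctrl replicate 2. No count filter and DESeq2 each called 1 other NK factor higher (Sfpi1), 1 E protein target higher (Socs3) and 1 upstream gene lower (Jak3). E protein targets lower in dKO were 3 with no count filter and 2 with DESeq2, and 1 to 2 with a library left out, while those higher were 0 to 1. Of the genes listed as tied to these factors, 2 were lower with no count filter and with DESeq2 (Il7r, S1pr5). With RLE size factors, a stricter filter, limma-voom and RSEM expected counts 1 was lower.

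The replicate numbers showed no sign of pairing the samples: deviations of same-numbered libraries from their group means correlated at -0.0544 across genes. With so few libraries this value cannot settle whether same-numbered libraries were paired. With the replicate number as a block, Nfil3 had a log2 fold change of 0.81 (edgeR adjusted p = 0.228) and Id3 one of -1.04 (adjusted p = 0.390), and 0 factors were called, while 2 other NK factors (Ikzf2, Zeb2) were lower in place of 3.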

Other observations

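Among the GABP subunits themselves, Gabpb2 fell in dKO (log2 fold change -3.61, adjusted p = 0.00126 in edgeR). Gabpb1, counted over all isoforms, had 81.2 and 79.4 CPM in dKO and 57.1 and 52.0 CPM in Ctrl, and did not pass (adjusted p = 0.273 in edgeR). Gabpa, the DNA-binding subunit, had 101.5 and 98.4 CPM in dKO and 81.6 and 80.8 CPM in Ctrl, and did not pass (adjusted p = 0.578 in edgeR).

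For Id3 the deposited counts and the RSEM expected counts gave different pictures of 1 library. The ratio of count to expected count was 3.30 in dKO replicate 1 and 2.09 in dKO replicate 2, against 1.98 and 2.05 in Ctrl, where the median over genes was 2.05 to 2.07 in every library. The log2 fold change of Id3 was -1.05 from counts and -1.37 from expected counts.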
